A study of Drosophila simulans with 4 samples.

Results

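Adult males of Drosophila simulans from 2 natural populations were compared by sequencing the 3′ ends of their cDNA, and the genes described here are those that the deposited table lists under a D. simulans identifier. They are the rows numbered from FBgn0180000 to FBgn0199999, chosen by a normalised count that averaged at least 20 over the libraries. Of the 15358 genes listed, 3336 carried such an identifier and 1125 of these reached the minimum. The remaining 2211 lay below it. The identifier FBgn0189090, with a mean of 20.02, lay just inside the limit, and FBgn0196927, with a mean of 19.96, lay just outside.

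Gotheron is a derived European population, caught in an apple orchard of the Rhône Valley, and Mayotte lies within the ancestral range of the species. All flies were first-generation sons of wild-caught females, with no transgene or mutant line involved, and each library was made from whole bodies of 100 males combined from 4 RNA extractions. In each population 1 library came from males kept on cornmeal and 1 from males kept on the local fruit, apple for Gotheron males and banana for those of Mayotte. Replicate 1 of each population is the cornmeal library and replicate 2 the fruit library, called natural, so that the replicates of a population differ in food as well as in the isofemale lines they came from. Gotheron and Mayotte thus had 2 libraries each. By the labels the males were kept for 7 days, while the methods give a shorter time of ageing. The study also states that the natural medium in Mayotte was contaminated with bacteria.

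The reads were first mapped to the genome of D. melanogaster, a close relative with a better annotated genome, and only those that failed went on to the D. simulans genome. Counts of a D. simulans gene were then moved to its D. melanogaster ortholog where one was found. A row that kept a D. simulans identifier would then be one to which no ortholog had been assigned. As background, genes of this kind in Drosophila are a mixture of young genes, of genes whose sequence evolves fast, many of them used in the male reproductive tract, and of gene models that annotation has split or missed. Neither the table nor the reference gene list pairs these identifiers with names, and 0 of the listed identifiers were found in the RefSeq gene table of the assembly Prin_Dsim_3.1, so no gene name, function or sequence is given. The table lists more D. simulans identifiers than the text of the study counts, and which of them have an ortholog could not be checked.

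The D. simulans identifiers spanned a wide range of expression. Their mean normalised count had a median of 104, with a middle range from 44.9 to 287 and a highest value of 51364. The 9700 genes with other identifiers and the same minimum had a median of 224. Of the 1125 identifiers, 542 had a mean from 20 to 100, 507 from 100 to 1000 and 76 above 1000. Every one of them had at least 1 read in every library. The most abundant was FBgn0187164, with normalised counts of 25743 in Gotheron cornmeal, 63270 in Gotheron natural, 49995 in Mayotte cornmeal and 66447 in Mayotte natural. Its Gotheron cornmeal value was the lowest and the other 3 libraries lay close together, so the populations overlapped. FBgn0185945 followed with 36276 and 33476 in Gotheron and 32898 and 40387 in Mayotte, again with overlapping populations. Further down, FBgn0189683 had 10079 in Gotheron cornmeal and between 17336 and 18562 in the other libraries.

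Together the D. simulans identifiers took a smaller share of the reads in 1 library. Total reads on listed genes ranged from 9829895 to 10365609 per library. The share on the 1125 identifiers was 4.27% in Gotheron cornmeal (95% Clopper-Pearson interval 4.26 to 4.29), 5.63% in Gotheron natural (5.62 to 5.65), 5.37% in Mayotte cornmeal (5.35 to 5.38) and 5.53% in Mayotte natural (5.52 to 5.55). The intervals cover counting error only. Gotheron cornmeal was the low library, and Gotheron natural lay above both Mayotte libraries. Gotheron averaged 4.95% ± 0.962 (SD, n = 2). Mayotte averaged 5.45% ± 0.118 (SD, n = 2), and a two-sided exact permutation test gave p = 1. With 2 libraries against 2 such a test cannot go below 0.33.

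Part of the low share of reads in Gotheron cornmeal lay in the 10 most abundant identifiers. They took 1.30% of the reads there and 1.81% in Gotheron natural. In Mayotte they took 2.02% on cornmeal and 2.26% on natural. The remaining identifiers took 2.97% in Gotheron cornmeal and 3.83% in Gotheron natural. In Mayotte these took 3.34% on cornmeal and 3.28% on natural. Low values in Gotheron cornmeal were also spread over many identifiers. Gotheron cornmeal held the lowest of the 4 values for 496 of the 1125 identifiers (44.1%), and Gotheron natural held the highest for 576 (51.2%). For the genes with other identifiers the order was different: Gotheron cornmeal was lowest in 12.8% and highest in 40.2% of them. Relative to the mean over the 4 libraries on the log2(normalised count + 1) scale, the median D. simulans identifier lay at -0.14 in Gotheron cornmeal and at 0.20 in Gotheron natural. It lay within 0.01 of the mean in both Mayotte libraries. The median of the other genes lay at 0.09 and 0.04 in the Gotheron libraries and at -0.05 and -0.08 in the Mayotte libraries.

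**Figure D1:**
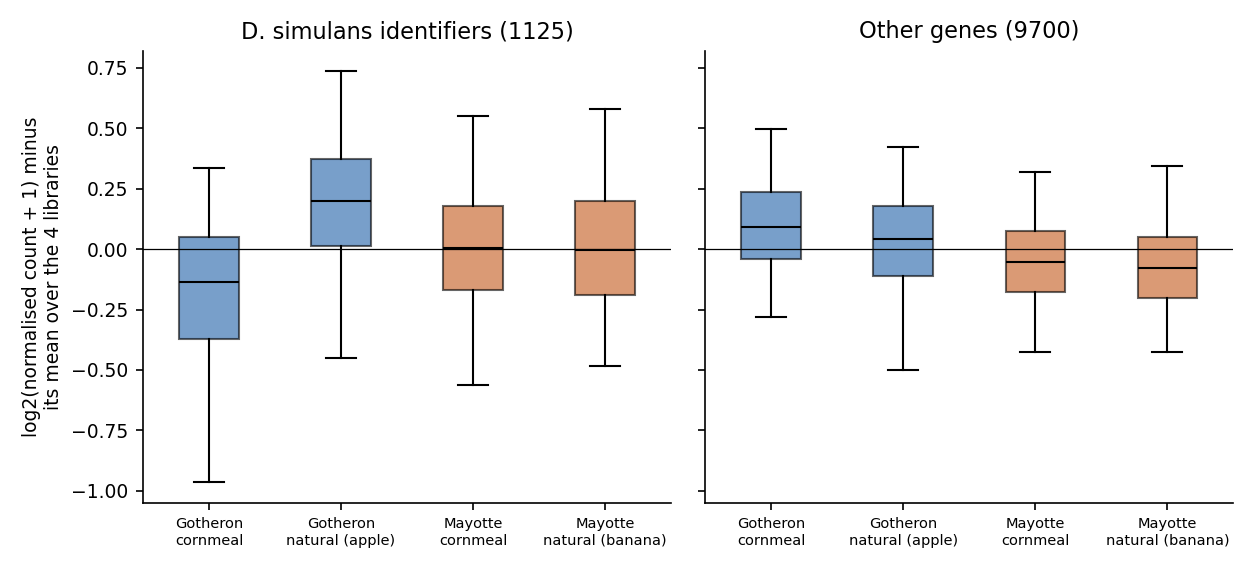
Position of each library relative to the mean of the 4, on the log2(normalised count + 1) scale, for the 1125 D. simulans identifiers (left) and the 9700 other genes (right); boxes show the middle range and the median, whiskers the central 90% of genes. The Gotheron cornmeal box lies lowest on the left, with a median of -0.14, and highest on the right, with a median of 0.09.

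The shift was present at every level of expression. Gotheron cornmeal was the lowest library for 46.7% of the identifiers with a mean from 20 to 100, for 40.8% of those from 100 to 1000 and for 47.4% of those above 1000. The corresponding shares of the other genes were 14.3%, 11.5% and 14.8%. Between the Gotheron libraries, 134 of the D. simulans identifiers (11.9%) were at least 2-fold lower in cornmeal than in natural, and 4 were at least 2-fold higher. Of the other genes 69 (0.711%) were lower and 183 (1.89%) were higher by that much. Between the Mayotte libraries 21 D. simulans identifiers were at least 2-fold lower in cornmeal and 8 were at least 2-fold higher. For the 134 identifiers that were low in Gotheron cornmeal, the median log2 difference of Mayotte cornmeal minus Mayotte natural was -0.15, against 0.03 over all 1125. For the 69 other genes that were low there, this median was -0.09, against 0.03 over all 9700. With 1 library for each population and food, the food and the library cannot be told apart, and no test was made of the difference between the D. simulans identifiers and the other genes.

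Expression was compared between the populations with a 2-step overdispersed Poisson test, the procedure of the study, fitted over all listed genes. The study left immunity genes out before its test because of the contamination, whereas here they could not be told apart and all listed genes were kept. A gene was called when its Benjamini-Hochberg adjusted p was at most 0.05 and the 2 populations did not overlap in their libraries. Of the 1125 D. simulans identifiers, 130 (11.6%) were called, where 6.22% of all listed genes were. There were 52 overexpressed in Gotheron (4.62%, against 3.7% of all genes) and 78 overexpressed in Mayotte (6.93%, against 2.52%). Among the 9700 other genes above the same minimum, 673 (6.94%) were called, 440 (4.54%) overexpressed in Gotheron and 233 (2.40%) in Mayotte. After TMM scaling, which levels the libraries on the bulk of the genes, the split of the D. simulans identifiers was 40 against 113, and that of all genes 406 against 627. A dispersion estimated inside each population gave 111 D. simulans identifiers against 109, and 1392 genes of all listed (9.06%) against 647 (4.21%). The test shares its dispersion between genes of like expression, although the D. simulans identifiers varied more between libraries of a population. Between the Gotheron libraries the log2 differences had an SD of 0.55 for the identifiers and 0.40 for the other genes. Between the Mayotte libraries the SDs were 0.39 and 0.34. The part of this wider spread in the counts was not tested.

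**Figure D2:**
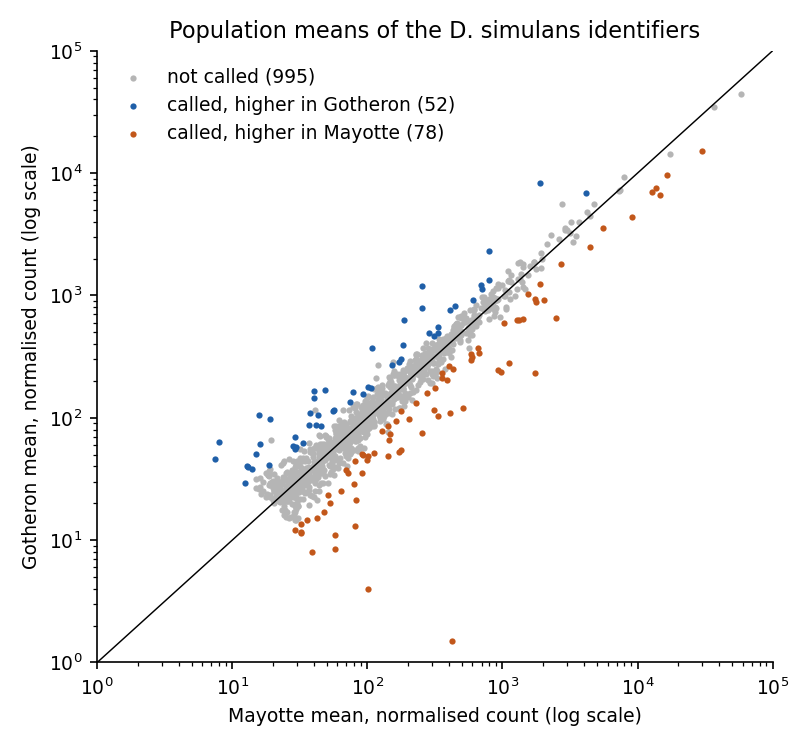
Mean normalised count of each of the 1125 D. simulans identifiers in Gotheron (vertical) against Mayotte (horizontal), both on log scales, with the line of equal expression. The 52 identifiers called higher in Gotheron lie above the line and the 78 called higher in Mayotte below it, among them a single point with a Gotheron mean of 1.50 and a Mayotte mean of 425.

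The larger number in Mayotte depended on the Gotheron libraries. Without Gotheron cornmeal, 152 D. simulans identifiers were overexpressed in Gotheron and 67 in Mayotte, and without Gotheron natural the numbers were 47 and 152. Over all listed genes the first of these runs called 865 (5.63%) in Gotheron and 600 (3.91%) in Mayotte, and the second 882 (5.74%) and 408 (2.66%). Leaving out any library, of Gotheron or of Mayotte, left 1 for its population, so the calls of all these runs rest on a single library there. In the plot of calls with each library left out, Mayotte kept the larger number without either of its own libraries. The size of the difference is given for each run, on the log2 scale with Mayotte subtracted. The identifiers had a median of 0.03 without Mayotte cornmeal and 0.02 without Mayotte natural. The other genes had 0.14 and 0.12. Without Gotheron cornmeal the median was 0.21 for the identifiers and 0.11 for the other genes. Without Gotheron natural these values were -0.12 and 0.16. Called in the same direction with all libraries and without each of them in turn were 69 of the 130 identifiers, 27 overexpressed in Gotheron and 42 in Mayotte. For the 27 the ratio of population means had a median of 3.15, and for the 42 it was 2.80. Of the 673 other genes called, 229 were called in all of these runs, 139 overexpressed in Gotheron and 90 in Mayotte.

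**Figure D3:**
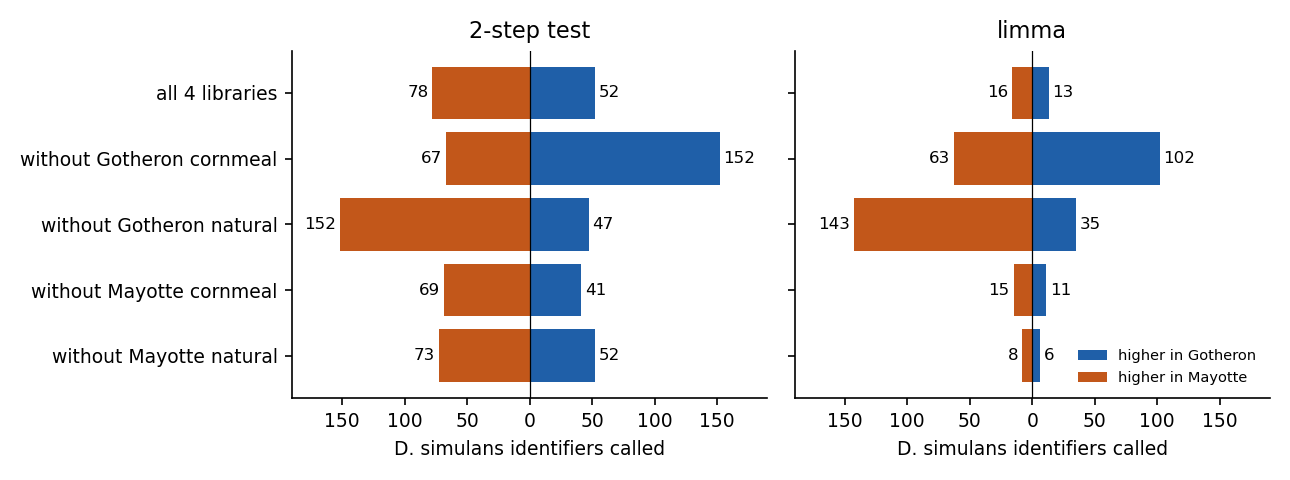
Number of D. simulans identifiers called higher in Gotheron (to the right) and in Mayotte (to the left) with all 4 libraries and with each left out, in the 2-step test (left) and with limma (right). The 2-step split turned from 152 Gotheron against 67 Mayotte without Gotheron cornmeal to 47 against 152 without Gotheron natural.

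The comparison within each food reuses the libraries of the runs above and is not a separate observation. Over the 1125 identifiers, Gotheron minus Mayotte had a median of 0.05 on the log2 scale with all libraries. It was -0.12 in the cornmeal pair of libraries and 0.20 in the natural pair, a choice of pairs made after the data were seen. Gotheron was the higher library for 432 identifiers (38.4%) on cornmeal and for 765 (68.0%) on the natural foods. For the other genes the median was 0.14 in the cornmeal pair and 0.12 in the natural pair. After TMM scaling the median over all libraries was -0.08 for the D. simulans identifiers and 0.01 for the other genes, so the sign of this small difference turned with the scaling. The populations did not overlap for 469 of the D. simulans identifiers (41.7%), where 44.2% of all genes were in that state.

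Limma was fitted on log2(normalised count + 1) to 12508 genes, those averaging 5 or more, and estimates the spread within populations. It called 29 of the D. simulans identifiers (2.58%), where 1.09% of the genes tested were called. Of these, 13 were overexpressed in Gotheron and 16 in Mayotte (0.72% and 0.368% of all genes tested). All 29 were also called in the 2-step test. At an unadjusted p under 0.05 there were 196 (17.4%), and among the other genes above the same minimum 1382 (14.2%). The count was 102 against 63 without Gotheron cornmeal, 35 against 143 without Gotheron natural and 6 against 8 without Mayotte natural. The same runs called 8.70%, 7.56% and 0.487% of all genes tested. In these runs 1 population had a single library, which is assumed to vary like the other. Called in the same direction in every run of limma were 13 identifiers, 5 overexpressed in Gotheron and 8 in Mayotte, and the same 13 were called in every run of the 2-step test.

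Most differences were moderate. Among the 52 identifiers overexpressed in Gotheron in the 2-step test, the ratio of population means ranged from 1.49 to 7.95 with a median of 2.08, and 7 reached 4. Among the 78 overexpressed in Mayotte it ranged from 1.50 to 283 with a median of 2.10, the highest being that of FBgn0186294, which had a mean of 1.50 in Gotheron and 425 in Mayotte. In that group 10 reached 4 and 2 reached 10. For the genes with other identifiers that were called, the median ratios were 1.79 in Gotheron and 1.87 in Mayotte. By the rule for a call, a gene overexpressed in Mayotte has its lowest value in a Gotheron library. Of the 78 identifiers, 48 had it in Gotheron cornmeal and 30 in Gotheron natural. Of the 233 other genes overexpressed in Mayotte, 48 had it in Gotheron cornmeal and 185 in Gotheron natural.

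The counts differed between levels of expression. Of the 542 identifiers with a mean from 20 to 100, 24 (4.43%) were called in Gotheron and 27 (4.98%) in Mayotte, where 3.71% and 1.69% of the other genes at this level were. Of the 507 from 100 to 1000 the numbers were 24 (4.73%) and 35 (6.90%), against 4.91% and 2.27%. Of the 76 above 1000, 4 were overexpressed in Gotheron and 16 (21.1%) in Mayotte. Among the other genes above 1000 the shares were 4.67% in Gotheron and 4.20% in Mayotte. The third and the fifth identifier in order of abundance belong to the 16. The third had 12079 in Gotheron cornmeal, 18020 in Gotheron natural, 28038 in Mayotte cornmeal and 31632 in Mayotte natural. Its Mayotte libraries lay above both Gotheron libraries (2-step adjusted p = 0.0039), but it did not pass with limma (adjusted p = 0.15). The fifth had 10844 and 8599 in Gotheron and 16151 and 16762 in Mayotte (2-step adjusted p = 0.020, limma adjusted p = 0.17).

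A gene could reach the minimum through the population in which it was higher, although its mean in the other lay below. This was so for 75 of the 1125 identifiers, of which 35 had a Gotheron mean and 40 a Mayotte mean under 20, and 24 of the 75 were called in the 2-step test. For the 1050 with both means at or above 20, the 2-step test called 106 (10.1%). There were 41 overexpressed in Gotheron (3.90% of the 1050) and 65 in Mayotte (6.19%). The share called was 32% of the 75 and 6.22% of all listed genes. Of the 2211 D. simulans identifiers below the minimum, 32 (1.45%) were called as higher in Gotheron and 31 (1.40%) in Mayotte.

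The 4 identifiers that follow were named by the size of their limma log2 difference among those called by both tests, and all belong to the 75. They reached the minimum only through the population where they were high, so that a difference was in part required of them. FBgn0186294 had the largest limma log2 difference and lay at or under 3 reads in each Gotheron library. Its normalised count was 1.01 in Gotheron cornmeal, 1.99 in Gotheron natural, 512 in Mayotte cornmeal and 338 in Mayotte natural. The Gotheron values correspond to 3 reads in all, against 850 in Mayotte, and the ratio of these reads, corrected for the library totals, was 281 with a 95% Clopper-Pearson interval of 95.8 to 1364 for counting error alone. The limma log2 difference of Gotheron minus Mayotte was -7.41 with a standard error of 0.35 (adjusted p = 0.00024).

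The next, FBgn0187829, had normalised counts of 1.01 in Gotheron cornmeal and 6.98 in Gotheron natural, and of 112 and 90.2 in the Mayotte libraries. All Mayotte values were far above the Gotheron ones. The ratio formed in the same way was 25.1, from 8 and 203 reads (interval 12.5 to 59.0). The limma log2 difference was -4.67 (standard error 0.61, adjusted p = 0.014). It was -3.67 without Gotheron cornmeal and -5.66 without Gotheron natural.

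Among those overexpressed in Gotheron and called by both tests, FBgn0190945 had the largest limma log2 difference. Its normalised counts were 102 in Gotheron cornmeal, 109 in Gotheron natural, 14.3 in Mayotte cornmeal and 17.5 in Mayotte natural. Both foods gave close values within each population, and the populations did not overlap. The ratio was 6.62, from 210 and 32 reads (interval 4.55 to 9.93), and the log2 difference 2.66 (standard error 0.26, limma adjusted p = 0.0056).

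FBgn0193352 had 49.6 and 42.9 in the Gotheron libraries and 9.20 and 5.82 in the Mayotte libraries. The ratio was 6.19, from 92 and 15 reads (interval 3.56 to 11.5). Its log2 difference of 2.50 (standard error 0.37, limma adjusted p = 0.026) did not pass without Mayotte natural (2.21, adjusted p = 0.085). Fold changes on this scale understate the change of genes with low values, and whether these genes share reads with similar copies was not analysed here.

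**Figure D4:**
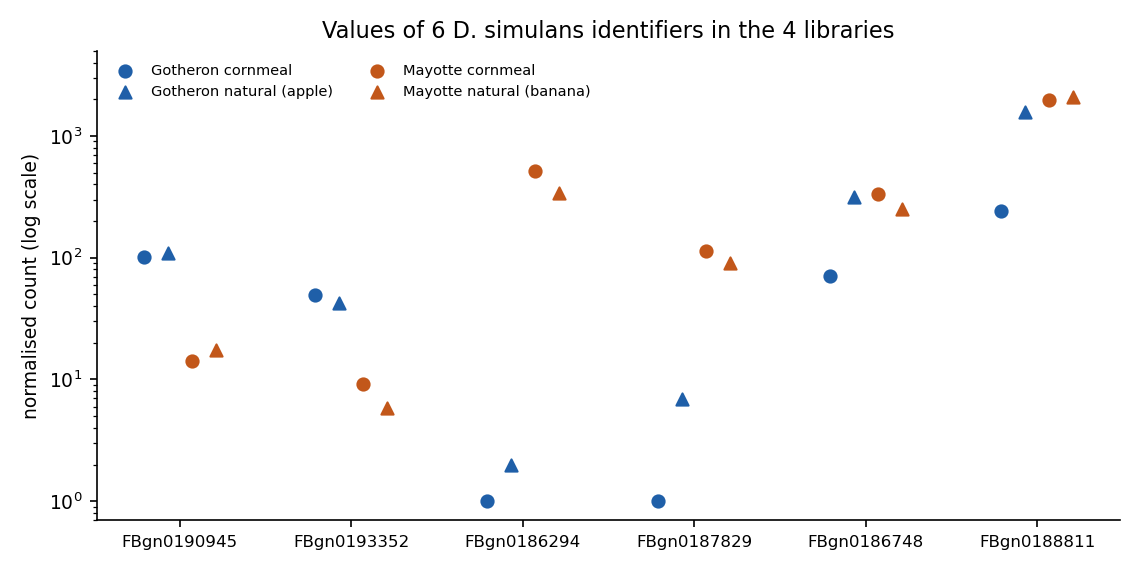
Normalised count, on a log scale, of 6 D. simulans identifiers in each of the 4 libraries (circles cornmeal, triangles natural). The first 4 separate the populations, FBgn0186294 with 1.01 and 1.99 in Gotheron against 512 and 338 in Mayotte, while in the last 2 the Gotheron cornmeal library alone lies low.

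Whether the population difference depended on the food was tested for each gene as the departure from a model with population and food as terms. The dispersion was again shared between genes of like expression. At an adjusted p of at most 0.05, 17 of the D. simulans identifiers passed (1.51%), where 0.508% of all listed genes did. Gotheron cornmeal held the lowest value in 15 of the 17, and the population difference had opposite signs on the 2 kinds of food in 15. Of the 9700 other genes above the same minimum, 57 passed (0.588%). In these the signs were opposite in 46, Gotheron cornmeal was lowest in 10 and Mayotte natural, the library of the contaminated medium, was highest in 39. The part of the contamination in these numbers was not tested. With 1 library for each population and food, the food and a single unusual library cannot be told apart.

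The smallest p belonged to FBgn0186748. Its normalised count was 70.9 in Gotheron cornmeal, 314 in Gotheron natural, 330 in Mayotte cornmeal and 252 in Mayotte natural (adjusted p for the interaction 1.01e-05, from the overdispersed Poisson model over all genes). Next was FBgn0188811, with 242 in Gotheron cornmeal and 1580, 1971 and 2071 in the other libraries (adjusted p 1.84e-05). In both, 1 library stood below the remaining 3, which lay closer together.

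**Figure D5:**
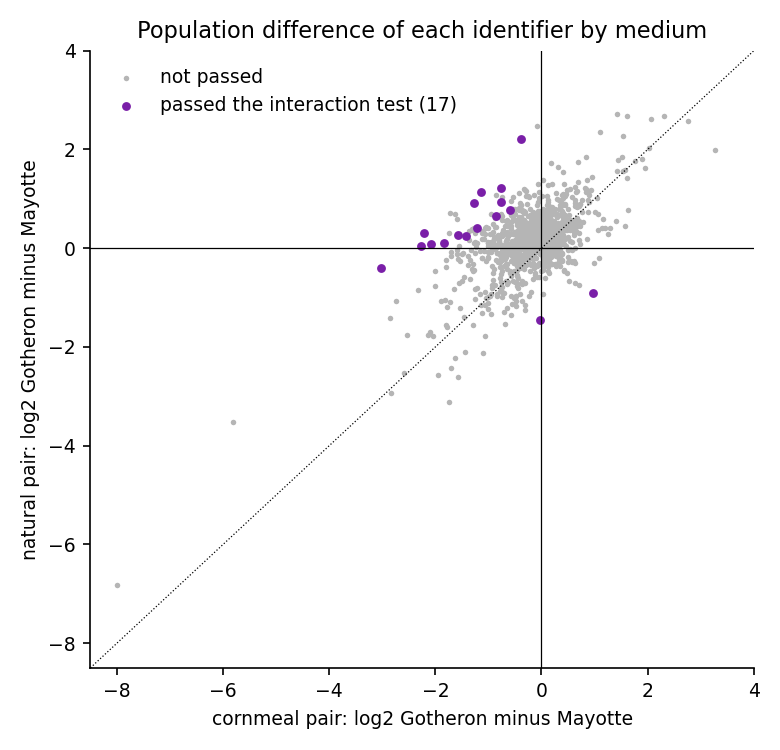
Log2 difference of Gotheron minus Mayotte for each of the 1125 D. simulans identifiers in the cornmeal pair of libraries (horizontal) and in the natural pair (vertical), with the dotted line of equal differences. The cloud lies above the line, with medians of -0.12 and 0.20, and most of the 17 identifiers that passed the interaction test lie to the upper left.

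Food itself was tested with population as a term, at the same shared dispersion. Of the D. simulans identifiers 53 passed (4.71%), where 1.46% of all listed genes did. With the dispersion taken around the model with both terms, 277 passed, and 12.7% of all genes. In 43 of the 53 the natural library was higher in both populations, in 5 the cornmeal library was higher in both, and 5 moved in opposite ways. The median ratio of natural over cornmeal in the 53 was 2.35 in Gotheron and 1.44 in Mayotte, and Gotheron cornmeal was the lowest library in 31. Among the 9700 other genes above the same minimum, 146 passed (1.51%), 58 higher on natural food in both populations and 61 higher on cornmeal in both. When the values of the D. simulans identifiers were rescaled in each library to a common median, a step added after seeing the data, 30 of them passed for food and 10 for the interaction. Of all listed genes, 1.31% then passed for food and 0.469% for the interaction. The rescaled values gave 52 identifiers overexpressed in Gotheron and 87 in Mayotte. Over all listed genes the same run called 582 (3.79%) in Gotheron and 404 (2.63%) in Mayotte.

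The clearest differences between foods, picked after the values were seen, were those with the smallest p. FBgn0188694 had 108 in Gotheron cornmeal, 488 in Gotheron natural, 102 in Mayotte cornmeal and 349 in Mayotte natural. It was higher on the natural food by 4.51-fold in Gotheron and 3.41-fold in Mayotte (adjusted p = 2.20e-17, overdispersed Poisson model over all genes). FBgn0185744 had 67.8 and 437 in Gotheron and 238 and 518 in Mayotte, a ratio of 6.43 in the first and 2.17 in the second (adjusted p = 6.64e-13). The natural foods were apple in one population and banana in the other, so the same fruit was not compared.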

How the data were processed

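The authors trimmed the reads with seqclean and mapped them with ELAND, first to the D. melanogaster and then to the D. simulans genome. Genome builds and software versions: not given in the sources used here. CASAVA is also named in the submitters' processing notes. The deposited values are a linear signal: the authors scaled the reads of each gene by a factor common to the library, so that each library sums to 10052291.25. After division by the lowest value above 0 in the same library, 100% of them were whole within 0.01, which gave the reads.

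The 2-step test took a Pearson dispersion around 1 mean over the libraries, smoothed it on the mean with Loess (span 0.75, degree 2) in R 4.3.3 and applied a likelihood ratio test, with adjustment over all 15358 genes. Limma 3.58.1 used a trended prior variance. Both were tested on simulated data. edgeR 4.0.16 was run, as an alternative only, on the reads of 3 libraries. The values of Gotheron natural are whole multiples too, with a step of 0.997. Its reads were not taken into edgeR and enter only depth, shares and counting intervals. The genes called by both tests are named by the largest limma difference, 2 in each direction because no names are paired with them. The others named are the most abundant, lie at the minimum, or have the smallest p for the interaction, apart from FBgn0188694 and FBgn0185744, picked after their values were seen. Marker genes and gene lists could not be used without names, so the labelled tissue was not checked. The members and tests were chosen with earlier results of these data known. No value column was left out. Immunity genes, which the study removed, were kept.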

Additional observations from a re-analysis of the deposited data

Results flagged for a closer look

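The difference between the populations was not the same on the 2 kinds of food for 17 D. simulans identifiers, when population and food were tested for an interaction. FBgn0186748 had the smallest adjusted p of 1.01e-05 (overdispersed Poisson model over all genes): its log2 difference of Gotheron minus Mayotte was -2.20 in the cornmeal pair of libraries and 0.32 in the natural pair. FBgn0188811 followed with an adjusted p of 1.84e-05 in the same model, and differences of -3.02 and -0.39. Each of these differences comes from 1 library against 1. The Gotheron cornmeal library is lowest in both genes, as in 44.1% of all D. simulans identifiers, and its part in the result was not tested.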

How the results depend on the processing

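The count of D. simulans identifiers called in the 2-step test was 130, and it was 220, with 111 overexpressed in Gotheron and 109 in Mayotte, when the dispersion was taken within populations, where 13.3% of all listed genes were called. Leaving out single libraries gave 110 to 219. The Wald test gave 127, a quadratic dispersion curve 134, TMM scaling 153, equal totals without the 10 most abundant genes 131, and the rescaled identifiers 139. Over all listed genes the same runs called 5.22%, 6.30%, 6.73%, 6.29% and 6.42%. The edgeR test used the reads of 3 libraries. Gotheron then has only its cornmeal library, which is assumed to vary like Mayotte, and no count is given. The limma count of 29 was 10 without a filter on low values, 4 with 1 prior variance for all genes and 63 with the food as a replicate block, and 14 to 178 with single libraries left out. Limma called 0.221% of all genes tested without that filter, 0.104% with 1 prior variance and 2.51% with the block. The deviations of libraries with the same food from their population means had a correlation of 0.24 across the 1125 identifiers. Across the 12508 genes tested the correlation was 0.09. These values are across genes, from 1 pair of differences, and genes are not independent replicates. The count for food was 53, and it was 277 with the dispersion around the model with both terms (1943 genes in all). With the identifiers rescaled the count for food was 30 (201 genes in all). The count of 17 for the interaction was 10 with the identifiers rescaled (72 genes in all). No library can be left out of these tests, which use 1 library for each population and food. Without the 10 most abundant D. simulans identifiers, the share of reads was 2.97% in Gotheron cornmeal, 3.83% in Gotheron natural, 3.34% in Mayotte cornmeal and 3.28% in Mayotte natural. The median difference ranged from -0.12 to 0.21 with single libraries left out. The cause of these changes was not tested.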
